A study of Mus musculus with 12 samples.

Results

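The genes described here encode haemoglobin and the red cell proteins that accompany its synthesis. They were read in RNA from the ventricles of embryonic mouse hearts at E15.5. Of 10 genes named (Hba-a1, Hba-a2, Hbb-bs, Hbb-bt, Hba-x, Hbb-y, Hbb-bh1, Alas2, Slc4a1 and Ahsp), 9 were matched to the 38293 gene identifiers of the count table, and Ahsp was not analysed here. The set was chosen because its levels had already been seen to differ between these groups, so its own levels and fold changes are given as a description, without p-values. There were 4 genotypes with 3 pools each, and 4 pairs of ventricles went into every pool. In the Mib1 mutant a Mib1 stop allele (R530X) stood opposite a floxed Mib1 allele in the presence of Tnnt2-Cre, a driver active in cardiomyocytes. Its Cre control had the floxed allele opposite a normal one, again with Tnnt2-Cre. The triple heterozygote carried single copies of the Mib1 R530X allele, an Asxl3 missense allele and an Apcdd1 missense allele (V150I), without Cre or loxP sites, and was set against WT embryos. The Asxl3 allele is given as M1415V in the sample labels and as M1361V in the design text. By design the stop allele is in every cell of both genotypes that carry it, whereas Tnnt2-Cre recombines the floxed allele in cardiomyocytes. Whole ventricles were homogenised, and the labels do not say whether blood was washed out of them.

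Haemoglobin is a tetramer of alpha-type and beta-type globin chains, each of which holds a haem group that binds oxygen. In the mouse the alpha-type genes lie in a cluster on chromosome 11 and the beta-type genes in a cluster on chromosome 7, and each cluster contains embryonic genes, used by the primitive red cells of the yolk sac, and adult genes, used by the definitive red cells that the fetal liver releases. Around this stage of gestation definitive cells replace primitive cells in the circulation, and young red cells in the vessels and chambers of the heart carry large amounts of globin mRNA. The transcription factors GATA1 and KLF1, which recognise GATA and CACCC motifs, drive both clusters and the haem synthesis gene Alas2 in red cell precursors.

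The promoters of the major adult globins, of an embryonic globin and of Alas2 are shown because these genes all had positive fold changes in the triple heterozygote, whereas in the Mib1 mutant the fold changes of adult and embryonic globins had opposite signs. Each is the 300 bases from 250 before to 50 after the RefSeq start on GRCm38.p6, written 5′ to 3′ on the strand of the gene, with matches to the motifs searched in capitals. They lie at chr11:32283422-32283721 (plus strand, Hba-a1), chr7:103827879-103828178 (minus strand, Hbb-bs), chr11:32276350-32276649 (plus strand, Hba-x) and chrX:150547167-150547466 (plus strand, Alas2).
Hba-a1: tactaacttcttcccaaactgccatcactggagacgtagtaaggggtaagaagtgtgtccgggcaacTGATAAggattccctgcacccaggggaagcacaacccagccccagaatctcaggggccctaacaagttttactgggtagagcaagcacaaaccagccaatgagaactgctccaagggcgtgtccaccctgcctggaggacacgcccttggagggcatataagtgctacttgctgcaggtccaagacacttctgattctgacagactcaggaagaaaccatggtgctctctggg
Hbb-bs: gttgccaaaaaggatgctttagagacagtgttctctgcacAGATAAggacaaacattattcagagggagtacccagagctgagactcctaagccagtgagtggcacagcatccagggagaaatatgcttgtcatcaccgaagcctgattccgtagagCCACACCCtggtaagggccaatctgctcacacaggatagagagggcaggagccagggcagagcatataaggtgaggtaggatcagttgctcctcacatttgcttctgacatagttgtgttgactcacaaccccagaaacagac
Hba-x: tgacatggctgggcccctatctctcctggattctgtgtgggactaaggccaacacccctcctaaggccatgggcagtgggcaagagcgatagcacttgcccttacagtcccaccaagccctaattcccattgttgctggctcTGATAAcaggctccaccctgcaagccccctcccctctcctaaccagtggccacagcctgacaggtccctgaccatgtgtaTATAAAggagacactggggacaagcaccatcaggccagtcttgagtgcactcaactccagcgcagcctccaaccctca
Alas2: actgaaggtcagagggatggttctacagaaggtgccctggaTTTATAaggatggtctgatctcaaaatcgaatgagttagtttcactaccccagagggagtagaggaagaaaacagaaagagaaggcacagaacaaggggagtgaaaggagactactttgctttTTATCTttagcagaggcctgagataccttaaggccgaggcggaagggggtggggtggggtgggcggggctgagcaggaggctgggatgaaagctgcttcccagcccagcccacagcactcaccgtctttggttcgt

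The motifs were TGATAA and AGATAA for GATA, CCACACCC for the CACCC box and TATAAA for the TATA box, all sought on both strands. RefSeq promoters were matched for 7 of the 9 genes. A GATA motif was in 6 of these 7 (all but Hbb-bt), against 18.5% of 32544 mouse promoters of the same length. In both adult alpha genes and in the embryonic Hba-x it read TGATAA, at positions -183 to -178 of Hba-a1 and -108 to -103 of Hba-x, counted back from -1 at the base before the start. In Hbb-bs it read AGATAA, at -210 to -205. In Alas2 it lay on the opposite strand, at -86 to -81. The CACCC box was in Hbb-bs alone among the 7, at -93 to -86, against 3.57% of all promoters. The TATA box letters were in Hbb-bt, Hba-x and Alas2, against 13.6% of all promoters. They lay at -28 to -23 in Hbb-bt and Hba-x, but on the opposite strand at -209 to -204 in Alas2. A match describes the letters of the window and does not show a bound site. The promoters of Hba-a1 and Hba-a2 shared an unbroken run of 297 bases, so their sequences offer no basis for telling the pair apart.

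Reads also separate these genes unequally. Of the 60-base windows (the read length) of the Hba-a1 transcript, 65.5% occur also in Hba-a2, and of those of Hba-a2 84.6% occur also in Hba-a1. For the beta pair the shares were 65.2% of Hbb-bs and 57.6% of Hbb-bt. The authors' counting divided such reads between the copies by estimation, so the split within each pair is uncertain and the sum of the pair is firmer. Hba-x, Hbb-y and Hbb-bh1 shared no window with the other globins.

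The libraries held 10103548 to 22157720 estimated counts in genes, the largest being triple heterozygote replicate 2 and the next 14774121. Values per gene are given as CPM, counts scaled to a common library size by the TMM method of edgeR. Levels of different genes are compared as TPM, which also divide by transcript length. The first principal component (27.2% of the variance) set the 6 libraries with Tnnt2-Cre (-29.7 to -13.1) apart from the other 6 (15.2 to 23.4), so the comparison of Cre control with WT runs across that gap and the other comparisons do not. Xist, expressed from the inactive X chromosome, was at 0.095 CPM in Mib1 mutant replicate 1 and 0.387 CPM in Cre control replicate 1, against 71.5 to 458 CPM in the other 10 libraries. As a check of the genotypes, Mib1 averaged 52.2 ± 2.41 CPM in the Mib1 mutant and 105 ± 3.51 CPM in the Cre control, and 68.7 ± 9.29 CPM in the triple heterozygote and 136 ± 9.45 CPM in WT (SD, n = 3 each). Cardiomyocyte markers were abundant in all 12 libraries, with Tnnt2 at 3935 to 6132 CPM.

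Adult globin mRNA was among the most abundant in the ventricles. Averaged over the 12 libraries, Hbb-bs stood at 6644 TPM and rank 15 of all genes, Hba-a1 at 5413 TPM and rank 20, Hbb-bt at 2332 TPM and rank 29, and Hba-a2 at 2171 TPM and rank 32. The embryonic genes were far lower on the same scale: Hbb-y, which encodes the embryonic beta-type epsilon chain, was at 129 TPM, Hba-x, which encodes the zeta chain, at 31.4 TPM and Hbb-bh1 at 3.13 TPM. Alas2, the erythroid enzyme of the first step of haem synthesis, was at 51.8 TPM, and Slc4a1, the anion exchanger band 3 of the red cell membrane, at 4.77 TPM. The order Hbb-bs, Hba-a1, then Hbb-bt and Hba-a2 held in the group means of all 4 genotypes, and the means of Hbb-bt and Hba-a2 differed by less than the larger SD in the Mib1 mutant, the Cre control and the triple heterozygote. The means of Hbb-bs and Hba-a1 also did so in the Mib1 mutant. These levels, and the transcript shares below, depend on the annotated lengths used. The lengths were 699 bases for Hba-a1, 554 for Hba-a2, 628 for Hbb-bs and 703 for Hbb-bt.

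In the triple heterozygote all 4 adult globin genes were higher than in WT in every pool. Hba-a1 (ENSMUSG00000069919; GRCm38 chromosome 11, 32283511 to 32284465, plus strand) had 2414, 3042 and 2620 CPM in the triple heterozygote, against 1507, 1726 and 1521 CPM in WT. Every triple heterozygote pool was above every WT pool, by a fitted 1.70-fold (log2 0.76, SE 0.11). Hba-a2 (ENSMUSG00000069917; chromosome 11, 32296489 to 32297298, plus strand), the second adult alpha gene, had 766, 962 and 805 CPM in the triple heterozygote and 481, 525 and 453 CPM in WT, a log2 difference of 0.80 (SE 0.11). Hbb-bs (ENSMUSG00000052305; chromosome 7, 103826534 to 103828096, minus strand), the more abundant adult beta gene, had 2725, 3069 and 2887 CPM in the triple heterozygote and 1846, 2053 and 1720 CPM in WT. The gap was a fitted 1.55-fold (log2 0.63, SE 0.10). Hbb-bt (ENSMUSG00000073940; chromosome 7, 103812524 to 103813996, minus strand) had 1126, 1170 and 1105 CPM in the triple heterozygote and 786, 777 and 635 CPM in WT, at the same log2 difference (0.63, SE 0.12). In bulk tissue, more red cells and more globin RNA per red cell cannot be told apart.

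**Figure D1:**
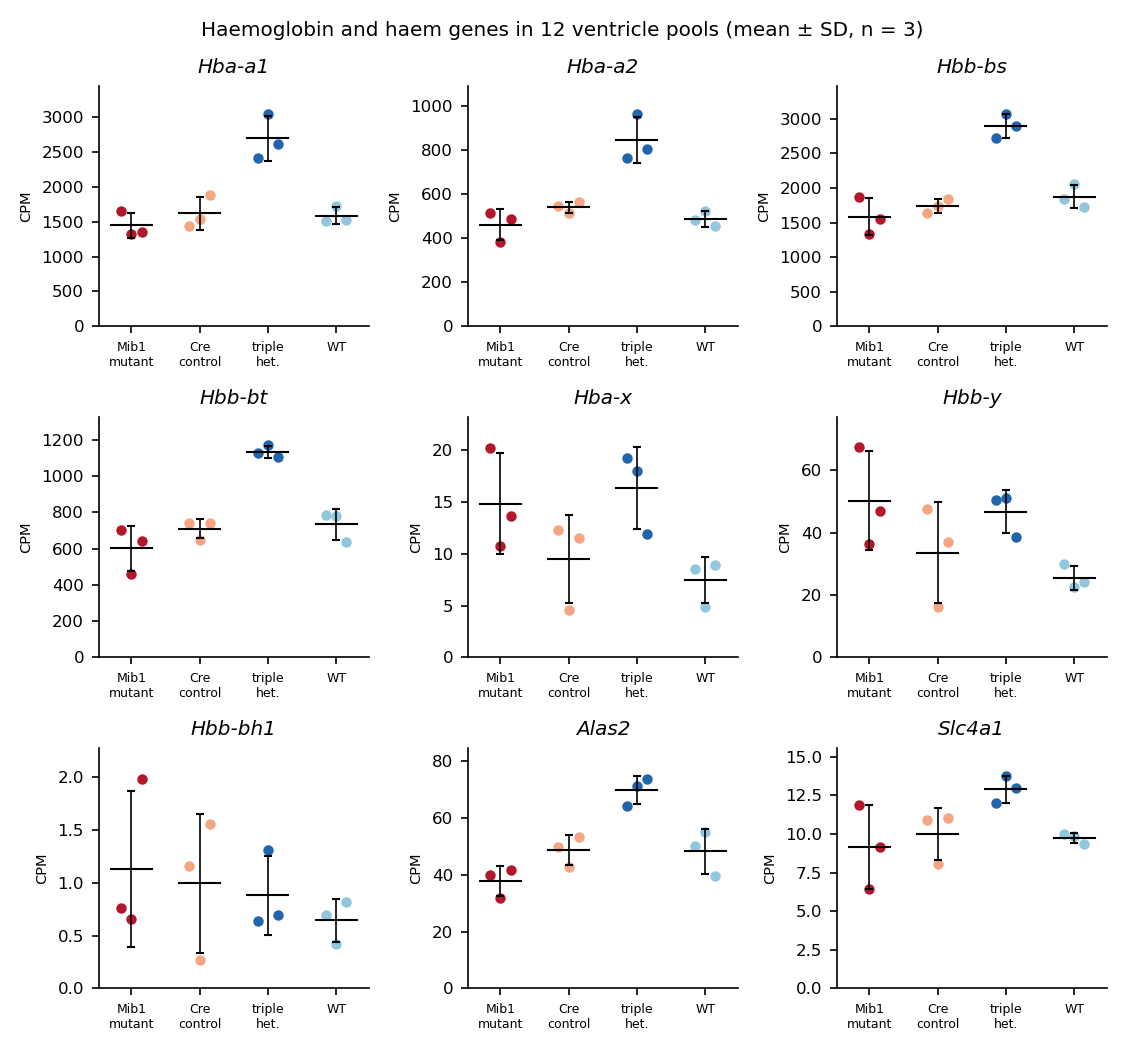
CPM (TMM-scaled, linear axes from 0) of 9 haemoglobin and haem genes in each of the 12 pools by genotype, with points for pools and bars for mean ± SD (n = 3). The triple heterozygote pools lie above all WT pools in every panel except that of Hbb-bh1, whose highest value is 1.98 CPM.

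The embryonic globins were higher too, with wider spread. Hba-x (ENSMUSG00000055609; chromosome 11, 32276400 to 32278116, plus strand) had 19.2, 18.0 and 11.9 CPM in the triple heterozygote and 8.58, 4.88 and 8.96 CPM in WT, a log2 difference of 1.14 (SE 0.32). Hbb-y (ENSMUSG00000052187; chromosome 7, 103851749 to 103853216, minus strand) had 50.3, 51.2 and 38.6 CPM in the triple heterozygote and 29.8, 22.7 and 24.1 CPM in WT, a log2 difference of 0.88 (SE 0.29). Neither gene overlapped between the groups. Hbb-bh1 (ENSMUSG00000052217; chromosome 7, 103841637 to 103843164, minus strand), an early beta-type gene, rested on 7, 29 and 7 estimated counts in the triple heterozygote pools and 8, 5 and 10 in the WT pools, of which the 29 came from the deepest library. Its CPM overlapped between the groups, and the log2 difference of 0.52 was smaller than its SE of 0.59.

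Alas2 and Slc4a1 were also higher in the triple heterozygote, with fitted differences below those of the adult globins. For Alas2 the gap to Hbb-bs and Hbb-bt (both 0.63 on the log2 scale) was smaller than its SE. Alas2 (ENSMUSG00000025270; chromosome X, 150547375 to 150570638, plus strand) had 64.3, 71.4 and 73.9 CPM in the triple heterozygote and 50.3, 55.2 and 39.7 CPM in WT, a log2 difference of 0.53 (SE 0.12). Slc4a1 (ENSMUSG00000006574; chromosome 11, 102348824 to 102366203, minus strand) had 11.98, 13.7 and 13.0 CPM in the triple heterozygote and 9.97, 9.85 and 9.37 CPM in WT, a log2 difference of 0.41 (SE 0.18). The pools of the groups did not overlap for either gene.

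Over all 9 genes the log2 difference between triple heterozygote and WT was positive, with a median of 0.63, while the median of all 13964 genes tested was 0. For 8 of the 9 every triple heterozygote pool was above every WT pool, which held for 7.67% of all genes. By the quasi-likelihood F test of edgeR, with p-values adjusted over all genes (Benjamini-Hochberg, threshold 0.05), 2 of the 9 were called (Hba-a1 and Hba-a2), beside 0.0215% of all genes, that is 3 genes, of which the other was Mib1. Since the genes were chosen from this contrast, nothing is read from those counts. The count was 7 without a low-count filter and 5 with DESeq2 or in a fit of those 6 libraries alone. It was 1 without triple heterozygote replicate 3, and 0 without triple heterozygote replicate 2 or without any single WT replicate, while the median log2 difference stayed between 0.61 and 0.73.

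Adult globin levels of the Mib1 mutant overlapped those of its control. Hba-a1 had 1659, 1326 and 1352 CPM in the Mib1 mutant and 1434, 1536 and 1882 CPM in the Cre control. Hbb-bs had 1874, 1330 and 1554 CPM in the Mib1 mutant and 1639, 1732 and 1843 CPM in the Cre control. The groups overlapped likewise for Hba-a2 and Hbb-bt, and the log2 differences were -0.16 (SE 0.11) for Hba-a1, -0.23 (SE 0.11) for Hba-a2, -0.13 (SE 0.10) for Hbb-bs and -0.24 (SE 0.12) for Hbb-bt. Alas2 had 39.8, 31.7 and 41.7 CPM in the Mib1 mutant and 49.7, 42.9 and 53.4 CPM in the Cre control, with every Mib1 mutant pool below every Cre control pool and a log2 difference of -0.37 (SE 0.13). Slc4a1 overlapped, at 11.9, 6.43 and 9.14 CPM in the Mib1 mutant and 10.9, 8.06 and 11.0 CPM in the Cre control (log2 difference -0.13, SE 0.19, and 0.07 without Mib1 mutant replicate 2).

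The fitted fold changes of the embryonic genes were positive in the Mib1 mutant. Hba-x had 20.2, 10.7 and 13.6 CPM in the Mib1 mutant and 12.3, 4.61 and 11.6 CPM in the Cre control (log2 difference 0.64, SE 0.32). Hbb-y had 67.5, 36.4 and 46.9 CPM in the Mib1 mutant and 47.6, 16.0 and 37.1 CPM in the Cre control (log2 difference 0.58, SE 0.28). Cre control replicate 2 was the lowest of the 12 libraries for both genes, and the groups overlapped for each. Without it the log2 differences were 0.32 for Hba-x and 0.25 for Hbb-y, without Mib1 mutant replicate 1 they were 0.35 and 0.30, and without Cre control replicate 1 that of Hbb-y was 0.90. Hbb-bh1 differed by 0.17 (SE 0.56) on 8, 7 and 23 estimated counts in the Mib1 mutant and 12, 3 and 23 in the Cre control, and ran from -0.52 to 0.70 as single replicates were left out, so its sign rests on single libraries. Of the 9 genes 0 were called (1, Alas2, when low counts were not filtered), beside 1.5% of all genes, and 1 (Alas2) lay below the Cre control in all pools, beside 7.73% of all genes. The median log2 difference of the 9 was -0.13. Leaving out Mib1 mutant replicate 2 gave -0.02 and leaving out Mib1 mutant replicate 1 gave -0.28, while leaving out replicate 3 or replicate 2 of the Cre control gave -0.05 or -0.26. Without replicate 1 of both groups, the libraries almost free of Xist, it was -0.32, an alternative chosen after the data were seen. Mib1 mutant replicate 1 held the highest summed adult globin level of its group, at 4749 CPM beside 3498 and 4032 CPM.

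Between the control groups the differences in adult globin were small. The log2 differences between Cre control and WT were 0.03 (SE 0.11) for Hba-a1, 0.15 (SE 0.11) for Hba-a2, -0.11 (SE 0.10) for Hbb-bs, -0.04 (SE 0.12) for Hbb-bt, 0.01 (SE 0.13) for Alas2 and 0.04 (SE 0.18) for Slc4a1. For Hba-x it was 0.35 (SE 0.34), for Hbb-y 0.40 (SE 0.29) and for Hbb-bh1 0.65 (SE 0.60). The groups overlapped for all 9 genes, beside 8.92% of all genes with every Cre control pool higher and 10.2% with every one lower. Of the 9, 0 were called beside 0.279% of all genes, and the median was 0.04. This comparison shares its Cre control libraries with that of the Mib1 mutant and its WT libraries with that of the triple heterozygote.

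**Figure D2:**
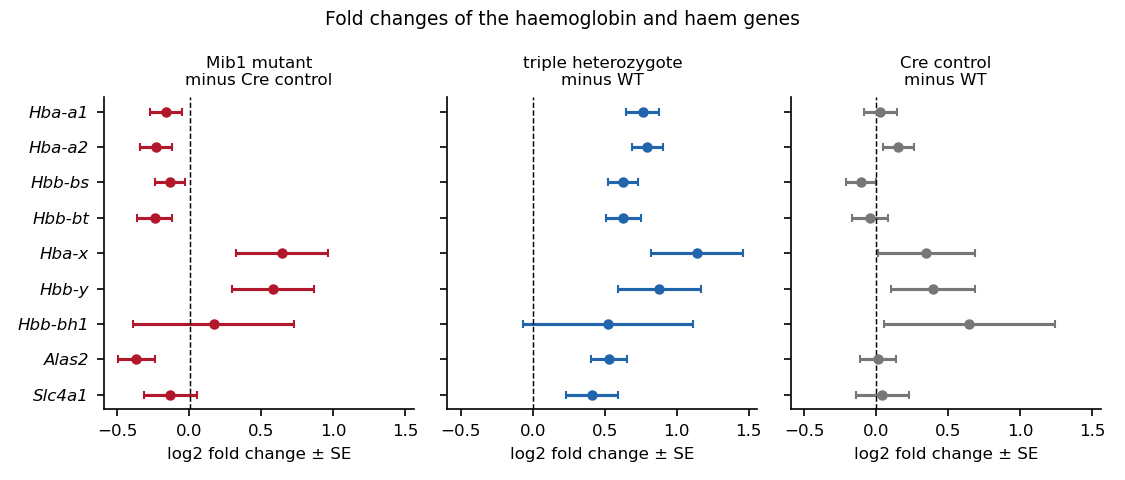
Log2 fold change ± SE of 9 haemoglobin and haem genes from edgeR, in panels for the Mib1 mutant over the Cre control, the triple heterozygote over WT and the Cre control over WT (3 pools a group), with a dashed line at 0. All 9 points lie right of 0 in the triple heterozygote (0.41 to 1.14), while in the Mib1 mutant the adult globins, Alas2 and Slc4a1 lie left of it and the embryonic globins right of it.

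Set against each other, the effect in the Mib1 mutant minus the effect in the triple heterozygote was -0.93 (SE 0.16) for Hba-a1, -1.03 (SE 0.15) for Hba-a2, -0.76 (SE 0.15) for Hbb-bs, -0.87 (SE 0.17) for Hbb-bt and -0.90 (SE 0.18) for Alas2 on the log2 scale. For Slc4a1 it was -0.54 (SE 0.26), for Hba-x -0.50 (SE 0.45), for Hbb-y -0.30 (SE 0.40) and for Hbb-bh1 -0.36 (SE 0.81). The first 5 were called, beside 0.516% of all genes, and 1 to 5 of them when single libraries were left out. Since these genes were chosen with their levels in the 4 genotypes known, nothing is read from those counts.

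As a share of all estimated counts, the 7 globins made up 0.693%, 0.830% and 0.746% in the triple heterozygote and 0.457%, 0.503% and 0.430% in WT. They made up 0.504%, 0.358% and 0.417% in the Mib1 mutant and 0.447%, 0.437% and 0.508% in the Cre control. With all erythroid genes left out of the library sizes, the same 2 genes were called in the triple heterozygote. Summed adult globin ran from 7031 to 8242 CPM in the triple heterozygote and from 4329 to 5081 CPM in WT.

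The make-up of the globin transcripts was read within each pool, independently of their amount. Embryonic globins, whose share of globin mRNA declines as definitive red cells take over, made up 0.960%, 0.828% and 0.673% of globin transcripts (counts divided by transcript length) in the triple heterozygote and 0.826%, 0.543% and 0.756% in WT. The ranges overlapped, and the means of 0.820 ± 0.144% and 0.708 ± 0.147% (SD, n = 3 each) differed by less than their SD. In the Mib1 mutant the share was 1.79%, 1.32% and 1.50%, against 1.36%, 0.461% and 0.972% in the Cre control, with means of 1.54 ± 0.238% and 0.931 ± 0.451% (SD, n = 3 each). The lowest Mib1 mutant pool (1.32%) was below the highest Cre control pool (1.36%), so these ranges overlapped narrowly. Without Cre control replicate 2, the pool with the smallest share of all 12, the difference between the means was 0.37 percentage points in place of 0.61.

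Both embryonic genes contributed to the share. Hba-x made up 0.759%, 0.516% and 0.601% of alpha-type transcripts in the Mib1 mutant and 0.502%, 0.184% and 0.388% in the Cre control. Hbb-y made up 2.61%, 2.03% and 2.14% of beta-type transcripts in the Mib1 mutant and 2.01%, 0.683% and 1.45% in the Cre control. For both genes every Mib1 mutant pool was above every Cre control pool, with 0.516% against 0.502% for Hba-x and 2.03% against 2.01% for Hbb-y in the closest pools.

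The split within each adult pair had close means in all groups. Hba-a2 supplied 28.3 ± 0.354% of adult alpha transcripts in the triple heterozygote and 27.9 ± 0.709% in WT, and 28.6 ± 2.35% in the Mib1 mutant, against 29.8 ± 2.55% in the Cre control (SD, n = 3 each). Hbb-bt supplied 25.9 ± 0.876% of adult beta transcripts in the triple heterozygote and 25.9 ± 1.48% in WT, and 25.2 ± 1.60% in the Mib1 mutant, against 26.8 ± 1.87% in the Cre control. There were 0.855 ± 0.059 alpha-type transcripts per beta-type transcript in the triple heterozygote and 0.777 ± 0.039 in WT, with overlapping pools.

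Alas2 and Slc4a1 were also set against adult globin in the same pool. There were 2.93, 2.77 and 3.19 Alas2 transcripts per 1000 adult globin transcripts in the triple heterozygote and 3.49, 3.48 and 2.94 in WT, which overlapped. The means were 2.96 ± 0.316 in the Mib1 mutant, against 3.38 ± 0.274 in the Cre control. For Slc4a1 there were 0.245, 0.239 and 0.251 transcripts per 1000 adult globin transcripts in the triple heterozygote and 0.310, 0.278 and 0.311 in WT, so that all triple heterozygote pools were below all WT pools. The Slc4a1 means were 0.316 ± 0.048 in the Mib1 mutant, against 0.311 ± 0.049 in the Cre control.

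**Figure D3:**
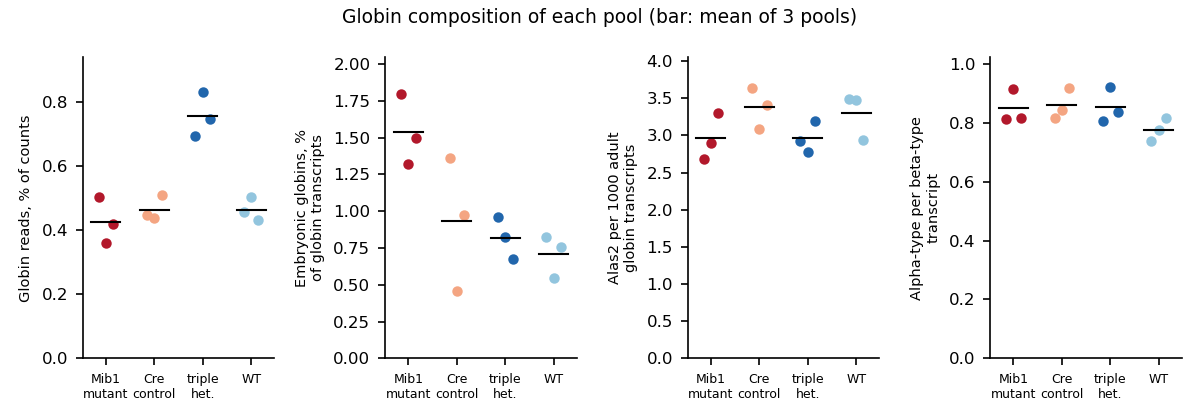
Globin counts as a percentage of all estimated counts, embryonic globins (Hba-x, Hbb-y, Hbb-bh1) as a percentage of globin transcripts, Alas2 transcripts per 1000 adult globin transcripts, and alpha-type per beta-type transcripts, for each pool (points) with the mean of 3 pools (bars). The triple heterozygote stands apart in the first panel (0.693% to 0.830%), and the Mib1 mutant has the highest mean in the second (1.54%).

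The genes were also compared by how they varied across libraries. Between pairs of the 4 adult globins, Alas2 and Slc4a1, Pearson's r of log2 CPM over the 12 libraries ran from 0.78 to 0.97 (15 pairs), and from 0.47 to 0.88 after the group means were removed. Hba-x and Hbb-y correlated at 0.95, and at 0.92 after the group means were removed. Between the adult set and Hba-x or Hbb-y, r ran from 0.18 to 0.54 (12 pairs), and from 0.15 to 0.78 after the group means were removed, a range that overlaps the one among the adult genes. These values describe 12 libraries in 4 groups, and reads shared within the alpha pair and within the beta pair raise r there. The coefficient of variation within groups was 2.90% to 20.7% for the adult globins, 7.11% to 16.3% for Alas2 and 14.9% to 47.9% for Hba-x and Hbb-y.

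Other genes of red cell biology were read from lists. Of 78 other erythroid genes, in lists of haem synthesis, haem and iron transport, transcription factors, membrane and maturation, 65 passed the filter on low counts, and the 9 globin and haem genes all passed. In the triple heterozygote against WT 0 of the 65 were called by edgeR, by DESeq2 or with no filter on low counts. By edgeR only 0.0215% of all genes were called there, so 0 calls in this or any list below says little about its genes. Of the 65, 12 had an unadjusted edgeR p under 0.05, beside 1209 of all 13964 genes. The median log2 difference of the 65 was 0.07, with 42 positive, beside a median of 0 over all genes. Gata1, Klf1, Rhag and Hemgn were among the genes that did not pass the filter. How much of the RNA of the 65 came from red cells was not tested. Of the same 65, 1 was called in the Mib1 mutant, beside 1.5% of all genes, at a median of -0.07. In that comparison 8 of the 65 had an unadjusted edgeR p under 0.05, beside 1954 of all 13964 genes. These counts over all genes stand beside those of every list below.

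The haem synthesis enzymes other than Alas2 had small fold changes. Of 8, 0 were called in the triple heterozygote (0 also at an unadjusted edgeR p under 0.05), and the log2 differences ran from -0.11 to 0.21 with a median of 0.09. Alas1, the form of the first enzyme used outside red cells, had 104, 117 and 110 CPM in the triple heterozygote and 114, 119 and 115 CPM in WT (log2 difference -0.07, SE 0.10, edgeR adjusted p = 0.833). In the Mib1 mutant it had 73.3, 104 and 94.5 CPM, against 114, 119 and 115 CPM in the Cre control, with no overlap (log2 difference -0.36, SE 0.10, edgeR adjusted p = 0.0898). That value passed when low counts were not filtered (edgeR adjusted p = 0.0154), with DESeq2 (0.0187) and without Mib1 mutant replicate 2 (0.0191). Urod, which decarboxylates the porphyrin precursor of haem, differed by 0.09 in the triple heterozygote and by 0.00 in the Mib1 mutant.

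Among 18 haem and iron transport genes 0 were called in either comparison with low counts filtered, and 2 in each had an unadjusted edgeR p under 0.05. Of all 13964 genes 1209 had such a p in the triple heterozygote and 1954 in the Mib1 mutant. Their median was 0.05 in the triple heterozygote and -0.12 in the Mib1 mutant, where 16 of 18 values were negative. Tfrc, the transferrin receptor through which red cell precursors and other dividing cells take up iron, had 208, 162 and 199 CPM in the triple heterozygote and 246, 219 and 213 CPM in WT (log2 difference -0.25, SE 0.11, edgeR adjusted p = 0.565). It had 155, 201 and 204 CPM in the Mib1 mutant and 230, 233 and 241 CPM in the Cre control (log2 difference -0.33, SE 0.11, edgeR adjusted p = 0.163, and 0.0381 when low counts were not filtered). Every pool of each mutant genotype was below every pool of its control. Fam210b and Iscu, mitochondrial proteins of haem and iron-sulphur cluster assembly, differed by -0.02 and 0.04 in the triple heterozygote. Of 7 genes for haem breakdown and iron storage 0 were called (2 at an unadjusted edgeR p under 0.05 in the triple heterozygote and 0 in the Mib1 mutant), at medians of 0.11 in the triple heterozygote and -0.03 in the Mib1 mutant.

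Of 14 transcription factors of red cell precursors, 10 passed the filter on low counts. Gata1 was at 0 to 0.483 CPM and Klf1 at 0 to 0.674 CPM over the 12 libraries, and both were below the filter, as were Nfe2 and Gfi1b. Of the 10 tested 0 were called (2 at an unadjusted edgeR p under 0.05 in the triple heterozygote and 0 in the Mib1 mutant), with medians of 0.05 in the triple heterozygote and 0.03 in the Mib1 mutant. Tal1, which endothelial cells also express, was at 7.89 to 11.0 CPM in the triple heterozygote and 8.30 to 9.52 CPM in WT.

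Of 14 genes of the red cell membrane and its skeleton, Ank1 was called. Ank1, ankyrin 1, which links the membrane to spectrin and has short forms in striated muscle, had 31.1, 42.8 and 32.1 CPM in the Mib1 mutant and 50.1, 54.9 and 58.7 CPM in the Cre control. It fell by 0.63 on the log2 scale (SE 0.11, edgeR adjusted p = 0.00755), a call lost in a fit of those 6 libraries alone (0.0577) and without Cre control replicate 3 (0.0534). In the triple heterozygote Ank1 differed by -0.06 (SE 0.11, edgeR adjusted p = 0.873). Gypc and Xk differed by -0.07 and -0.31 in the triple heterozygote and were not called. The list's median in the triple heterozygote was -0.07, with 10 of 14 values negative.

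Genes of red cell maturation had the highest median of these 5 lists in the triple heterozygote. Of 16, 0 were called and 6 had an unadjusted edgeR p under 0.05, beside 1209 of all 13964 genes. In the triple heterozygote 13 were positive, at a median of 0.25, against 0 over all genes. In the Mib1 mutant 6 were positive, with a median of -0.11. Bpgm, the enzyme that makes the phosphate ester regulating oxygen release by haemoglobin, had 36.8, 35.7 and 37.8 CPM in the triple heterozygote and 29.9, 27.4 and 28.5 CPM in WT (log2 difference 0.36, SE 0.08, edgeR adjusted p = 0.326). Tent5c, a poly(A) polymerase, had 18.7, 18.0 and 22.5 CPM in the triple heterozygote and 17.3, 15.8 and 14.2 CPM in WT (log2 difference 0.32, SE 0.14, edgeR adjusted p = 0.565). Neither overlapped between the groups. Epor, the erythropoietin receptor, was named after its values were seen, since its log2 difference of 1.11 (SE 0.50, edgeR adjusted p = 0.565) was above that of every adult globin. It had 1.18, 0.768 and 1.09 CPM in the triple heterozygote and 0.260, 0.589 and 0.493 CPM in WT, which are low levels. The means of Epor in the Mib1 mutant (1.03 CPM) and the Cre control (0.871 CPM) were also above that of WT (0.448 CPM). Its log2 difference between Cre control and WT was 0.97 (SE 0.51). Trim10, also named after its values were seen, had 3.54, 3.16 and 3.27 CPM in the triple heterozygote and 2.34, 2.11 and 2.14 CPM in WT (log2 difference 0.59, SE 0.35, edgeR adjusted p = 0.618). Rhd, named likewise and also in the membrane list, went the other way. It had 1.09, 2.44 and 1.98 CPM in the triple heterozygote and 2.86, 2.44 and 3.37 CPM in WT. Its log2 difference of -0.61 (SE 0.34, edgeR adjusted p = 0.610) was the lowest of the list. Trib2 and Samd14 differed by 0.03 and 0.31. Prdx2 and Bnip3l, the members of the list with the highest mean levels per length (465 and 103 TPM), differed by 0.11 and -0.02.

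**Figure D4:**
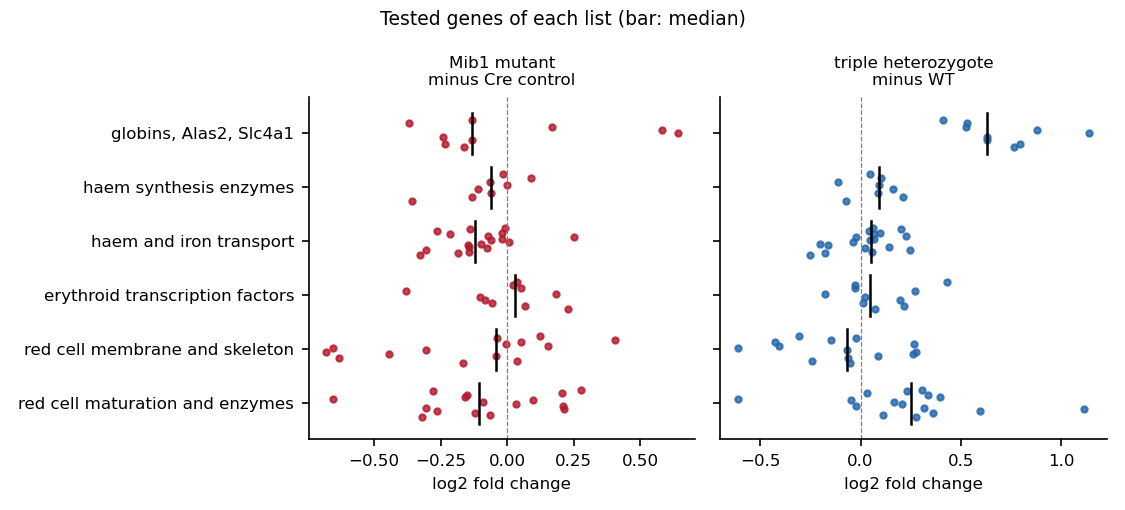
Log2 fold changes of the tested genes (points) in 6 lists, for Mib1 mutant minus Cre control and triple heterozygote minus WT, with the median of each list as a bar and a dashed line at 0. In the triple heterozygote the median was 0.63 for the globins, Alas2 and Slc4a1, 0.25 for red cell maturation and -0.07 to 0.09 for the other 4 lists.

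Globins of other tissues were also read. Myoglobin (Mb), the oxygen store of heart muscle, averaged 850.2 ± 55.6 CPM in the triple heterozygote and 859 ± 63.1 CPM in WT (SD, n = 3 each; log2 difference -0.02, SE 0.08, edgeR adjusted p = 0.963). It averaged 696 ± 38.7 CPM in the Mib1 mutant and 822 ± 56.1 CPM in the Cre control (log2 difference -0.24, SE 0.08, edgeR adjusted p = 0.159). Cytoglobin (Cygb) differed by -0.09 in the triple heterozygote and -0.16 in the Mib1 mutant.

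Marker lists of other cells were read beside these results. Of 12 liver markers 4 were tested and 0 were called, and their summed level was 12.8 to 15.2 CPM in the triple heterozygote and 13.7 to 39.9 CPM in WT. Alb and Afp were at most 0.363 CPM in the triple heterozygote and reached 9.60 and 10.4 CPM in WT replicate 2. Trf, transferrin, the liver marker of highest mean level, averaged 10.2 ± 1.01 CPM in the triple heterozygote and 9.79 ± 2.48 CPM in WT (SD, n = 3 each). The part of liver RNA in the globin result was not tested. Of 17 leukocyte markers 15 were tested. In the triple heterozygote 13 of these were positive and 0 called (median 0.22), with a sum of 122 to 130 CPM, against 95.3 to 113 CPM in WT. In the Mib1 mutant all 15 were negative, with a sum of 69.3 to 88.4 CPM against 105 to 134 CPM in the Cre control, and Lyz2 (log2 difference -1.02, SE 0.17, edgeR adjusted p = 0.00455) and C1qb (-0.61, SE 0.13, 0.0289), both expressed by macrophages, fell. The call of C1qb was lost in 5 alternatives, at edgeR adjusted p of 0.0569 to 0.145. Mpo was at 0 to 0.817 CPM and Elane at 0 to 0.363 CPM. Between Cre control and WT 14 of the 15 were positive and 0 called (median 0.21), while the adult globins differed by -0.11 to 0.15. In the triple heterozygote the summed leukocyte level and summed adult globin both lay above WT in all pools. In the Mib1 mutant the leukocyte sum lay below the Cre control in all pools, whereas summed adult globin overlapped (3498 to 4749 CPM, against 4361 to 5028 CPM). The part of such cells in the globin result was not tested.

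Of 12 megakaryocyte and platelet markers 6 were tested. Thbs4, which other cells of the heart also express, rose in the Mib1 mutant (log2 difference 1.08, SE 0.10, edgeR adjusted p = 5.43e-05), and the list without it summed to 8.47 to 9.14 CPM in the Mib1 mutant and 8.83 to 17.3 CPM in the Cre control, and to 11.7 to 15.1 CPM in the triple heterozygote and 10.7 to 12.6 CPM in WT. Endothelial markers (12 tested, 0 called) summed to 1422 to 1509 CPM in the triple heterozygote and 1507 to 1556 CPM in WT. Cardiomyocyte markers (12 tested, 0 called) summed to 49926 to 55738 CPM in the triple heterozygote and 51966 to 53765 CPM in WT, and to 42047 to 50429 CPM in the Mib1 mutant and 50171 to 56316 CPM in the Cre control.

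Among 12271 genes outside the set with a mean of at least 2 CPM, those whose log2 CPM ran most like the mean of the 9 genes over the 12 libraries were Dusp26 (Pearson's r 0.90), Kcnab2 (0.88), Zfat (0.87), Ephb3 (0.85), Mkrn1 (0.84), Bpgm (0.84), Chtf8 (0.80), Copz1 (0.80), Gprc5c (0.80) and Gpx1 (0.79). Dusp26, a protein phosphatase gene, was at 3.37 to 3.72 CPM in the triple heterozygote and 1.64 to 2.44 CPM in WT, and at 1.58 to 2.09 CPM in the Mib1 mutant and 1.68 to 2.57 CPM in the Cre control. Gpx1, a glutathione peroxidase gene active in red cells and many other cells, was at 103 to 131 CPM in the triple heterozygote and 87.4 to 99.0 CPM in WT. To the mean of Alas2 and Slc4a1 the nearest were Gprc5c (0.94), Dusp26 (0.89), Tent5c (0.88), Bpgm (0.86), 2010300C02Rik, Stk10, Neu3, Epb41, Smoc1 and Lyrm1. To the mean of the 3 embryonic globins they included Hand1 (0.86), Cbarp (0.85), Tbcd, Arhgef18, Hunk, Proser1, Zscan18, Tceal3 and Ywhaq. Dusp26, Bpgm and Gprc5c were on both of the first 2 of these lists, and no gene of the third was on either. With so many genes and 12 libraries, these names are a description of likeness in these libraries.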

How the data were processed

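PolyA RNA from pools of E15.5 ventricles was, per the labels' protocols, made into strand-specific libraries and read from 1 end for 60 bases. The authors deposited a single table of RSEM expected counts: estimated counts per gene, 9.64% of them not whole, with no scaling for depth. Per the submitters' processing notes, the tools were bcl2fastq 2.20.0.422 and cutadapt, then RSEM and limma, listed without roles, and the build was GRCm38. The aligner is not given in the sources used here. Columns were assigned to samples by name. The columns named as mutant, with neither flox nor Cre in the name, were taken as the triple heterozygote, an inference from the names alone. Of the 38293 identifiers, GENCODE mouse release M21 annotated 36345 and gave their symbols, positions and transcript lengths.

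Counts were rounded and fitted in edgeR 4.0.16 under R 4.3.3 (two-sided quasi-likelihood F test after TMM scaling). The filter filterByExpr kept 13964 genes with 99.9% of the counts. A single fit of all 12 libraries had 8 residual degrees of freedom, and Benjamini-Hochberg adjustment ran over all genes at a threshold of 0.05. SE is the size of the log2 fold change divided by the square root of F. TPM and transcript shares used the spliced length of the longest protein-coding transcript. Replicates were separate pools (whether from separate litters is not stated), and every pair differed beyond sampling noise, at a chi-square of 2.07 to 14.1 per degree of freedom. The members and gene lists were chosen with earlier results of these data known.

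Genes named beside the members were, for each list, those called and 3 others, which were not always those with the highest mean TPM. The 10 most like the members in each of 3 likeness rankings were also named. Gata1, Klf1, Alb, Afp, Mpo and Elane were named as defining markers of their cell types. A few genes that this rule names are not reported here. For the marker lists of cell types, such other genes that were not called were left unnamed except Tnnt2 and Trf. Epor, Trim10 and Rhd were named after their values were seen. The likeness to non-globin members used Alas2 and Slc4a1. The alternatives were median-ratio size factors, erythroid genes left out of library sizes, a low-count filter left out or set at a mean of 2 CPM, DESeq2 1.42.0, limma-voom (limma 3.58.1), the replicate number as a block, a fit of only the libraries compared, each replicate left out, and lengths left out of the embryonic share. Leaving out the libraries almost free of Xist, and exon-union lengths, were chosen after seeing the data. The tests were first tried on simulated data. Of columns of other samples, 0 were left out.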

Additional observations from a re-analysis of the deposited data

How the results depend on the processing

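Of 570 recomputed fold changes of the 9 haemoglobin and haem genes, 5 moved by more than their replicate spread and 16 changed sign, 15 of them when a single replicate was left out. None of the 16 was in the triple heterozygote comparison: 3 were in the Mib1 mutant comparison (Slc4a1 and Hbb-bh1), 10 between Cre control and WT (Slc4a1, Alas2, Hbb-bt and Hba-a1) and 3 in the difference between effects (Hbb-y and Hbb-bh1). In the Mib1 mutant comparison, the number of genes called was 210, and 476 when low counts were not filtered, 416 with DESeq2, 318 with the replicate block, 93 in a fit of only the libraries compared, 110 without the libraries almost free of Xist and 116 to 415 without single replicates. In the triple heterozygote comparison it was 3, and 54 with no filter, 22 with DESeq2, 10 in a fit of only the libraries compared and 1 to 3 without single replicates. Between Cre control and WT it was 39, and 144 with no filter, 82 with DESeq2, 59 with the block, 68 in a fit of only the libraries compared and 23 to 42 without single replicates. For the difference between effects it was 72, and 246 with no filter, 167 with DESeq2, 109 with the block, 41 without the libraries almost free of Xist and 28 to 233 without single replicates. Of the 65 other erythroid genes, 1 was called in the Mib1 mutant, and 3 with no filter, 3 with DESeq2, 2 with the block, 0 in a fit of only the libraries compared and 0 to 2 without single replicates; for the difference between effects it was 0, and 2 with no filter, 1 with DESeq2 and 0 to 2 without single replicates. The median log2 change of the 9 genes in the Mib1 mutant was -0.13 and -0.32 without the libraries almost free of Xist, and for the difference between effects -0.76 and -0.94. Whether replicate numbers pair the libraries was not settled. Correlations between libraries were taken over the genes tested, in log2 CPM after the group mean of each gene was removed. On that scale same-numbered libraries of the Mib1 mutant and Cre control correlated at 0.01 to 0.17, and other-numbered ones at -0.21 to 0.11. On the same scale, libraries of the triple heterozygote and WT correlated at -0.06 to 0.09 with the same number and -0.15 to 0.16 with other numbers. Under the block 1 of the 9 genes was called in the triple heterozygote in place of 2. Depth limited Hbb-bh1, with 3 to 29 counts a library. The cause of these shifts was not tested.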
